A study of Mus musculus with 6 samples.

Results

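H3K4me3 ChIP-seq was carried out in 2 mouse lymphoid progenitor cell lines, and the 4452 regions described here are the places away from promoters where a peak was called in the B-cell progenitor line and none in the T-cell progenitor line. The B-cell progenitor line (pre-B) was transformed with Abelson virus, and the T-cell progenitor line (pro-T), Scid.adh.2C2, came from a T-cell tumor of CB17 mice that carry the Prkdc scid mutation. Both were grown untreated in culture and immunoprecipitated with the same Millipore antibody. Each line was represented by 2 H3K4me3 libraries and 1 input library, which had been combined into 1 peak list per line, so no value below has a replicate error. Each group is a single tumor or transformed line, so what is B-lineage and what belongs to this one line cannot be told apart.

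Overlapping peaks of the 2 lists (1 bp or more) were merged into 22625 regions. Members were selected on the presence of a pre-B peak, on the absence of a pro-T peak, and on lying clear of the 2500 bp either side of every transcription start site (TSS) in GENCODE M21 on GRCm38. Regions with a pre-B peak only made up 34.1% of all merged regions, and 55.3% of the 8053 distal regions. The pre-B list was the longer one, with 19604 peaks against 15513, and with equal numbers of peaks in both lists 2194 regions met the rule. The 4452 members (19.7% of all regions) were set beside 2322 distal regions with a pro-T peak only, 1279 distal regions shared by the lines, and 3258 promoter regions with a pre-B peak only. Every member consisted of 1 peak. Absence of a pro-T peak means that no peak passed the authors' thresholds in that line, and the depth of the libraries is unknown here.

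Trimethylation of histone H3 lysine 4 is deposited by SET1 and MLL complexes, is found above all at the nucleosomes flanking active or poised promoters, and reaches its highest levels at CpG islands. Distal regulatory elements mostly carry monomethylated H3K4, but strongly active enhancers and unannotated start sites can carry the trimethylated form as well. In early B cells, EBF1, PAX5, FOXO1 and the E proteins bind many distal elements, and the genes of the pre-B cell receptor and its signaling chain are among their known targets.

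The sequences at the summits of a few members show what kind of DNA the peaks covered. For the member with the highest fold, for the highest members nearest to 4 B-lineage transcription factor genes, and for the member with the second highest fold, the 300 bases around the summit are given on the plus strand of GRCm38 (RefSeq assembly), with CpG dinucleotides in capitals.
Hdac9, intron, chr12:34713620-34713919: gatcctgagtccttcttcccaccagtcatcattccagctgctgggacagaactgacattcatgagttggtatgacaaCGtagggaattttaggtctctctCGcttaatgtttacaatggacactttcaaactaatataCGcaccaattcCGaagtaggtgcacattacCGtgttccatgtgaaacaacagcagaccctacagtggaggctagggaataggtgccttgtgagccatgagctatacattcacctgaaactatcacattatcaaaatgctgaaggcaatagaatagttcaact
Ebf1, intergenic, chr11:45025294-45025593: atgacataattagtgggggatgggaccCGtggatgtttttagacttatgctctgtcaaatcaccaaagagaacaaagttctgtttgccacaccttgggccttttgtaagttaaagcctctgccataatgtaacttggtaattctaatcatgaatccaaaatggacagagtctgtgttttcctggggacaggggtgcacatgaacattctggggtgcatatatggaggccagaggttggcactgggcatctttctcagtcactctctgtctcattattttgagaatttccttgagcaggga
Pax5, intron, chr4:44674800-44675099: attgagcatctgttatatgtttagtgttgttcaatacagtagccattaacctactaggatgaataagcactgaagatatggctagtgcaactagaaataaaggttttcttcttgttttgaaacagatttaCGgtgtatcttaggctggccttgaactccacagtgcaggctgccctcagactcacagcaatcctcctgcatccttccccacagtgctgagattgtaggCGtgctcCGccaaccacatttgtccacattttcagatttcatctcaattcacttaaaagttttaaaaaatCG
Bach2, intergenic, chr4:32170634-32170933: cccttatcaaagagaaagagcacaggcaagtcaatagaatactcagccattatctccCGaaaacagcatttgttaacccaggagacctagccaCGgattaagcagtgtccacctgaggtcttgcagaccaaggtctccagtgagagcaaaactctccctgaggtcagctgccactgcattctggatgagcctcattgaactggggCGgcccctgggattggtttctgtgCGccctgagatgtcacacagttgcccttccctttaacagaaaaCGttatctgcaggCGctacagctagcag
Irf4, intron of a neighboring gene, chr13:30834535-30834834: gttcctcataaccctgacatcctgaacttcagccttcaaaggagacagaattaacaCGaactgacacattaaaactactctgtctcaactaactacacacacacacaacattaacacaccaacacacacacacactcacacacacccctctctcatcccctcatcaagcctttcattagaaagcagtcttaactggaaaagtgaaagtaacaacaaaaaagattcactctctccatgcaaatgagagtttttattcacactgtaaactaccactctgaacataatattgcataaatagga
Lcor, intergenic, chr19:41442171-41442470: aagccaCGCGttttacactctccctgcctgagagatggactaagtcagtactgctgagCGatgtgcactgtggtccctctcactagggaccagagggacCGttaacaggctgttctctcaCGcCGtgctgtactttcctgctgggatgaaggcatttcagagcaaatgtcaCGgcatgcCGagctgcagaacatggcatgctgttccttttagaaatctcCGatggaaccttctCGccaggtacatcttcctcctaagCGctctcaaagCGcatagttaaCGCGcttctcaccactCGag
The window nearest to Ebf1 and that nearest to Irf4 held 1 CpG each, the Pax5 window 4, the Hdac9 window 5 and the Bach2 window 6. The Lcor window held 15 and was one of the few CpG-dense members.

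Members were CpG-poor. The median CpG observed to expected ratio in the 300 bases at the summit was 0.252 (95% interval 0.246 to 0.257, from order statistics), compared with 0.273 (0.265 to 0.280) in the distal pro-T-only regions, 0.355 (0.342 to 0.365) in the distal shared regions and 0.576 (0.569 to 0.583) in the shared promoter regions. The median of members was 0.282 (0.274 to 0.290) with equal numbers of peaks in both lists. With peaks of at least 10-fold it was 0.294 (0.286 to 0.308). The other classes were not recomputed at these settings, so the order of the 2 line-specific distal classes is given only for the full lists. Only 62 members (1.39%, Wilson 95% interval 1.09 to 1.78) passed both a ratio of 0.6 and a GC content of 50%, against 8.84% (7.40 to 10.5) of distal shared regions. These intervals cover counting error only, and neighboring regions are not independent of each other. The GC content of members had a median of 47.3%, and a median of 9% of the window was repeat-masked.

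A pair of EBF1 half-sites, TCCC and GGGA separated by 2 bases, was searched for together with short cores of other lymphoid factors on both strands. EBF1 is the factor that starts the B-lineage program. The pair was present in 2.27% of members (1.87 to 2.75), in 0.775% (0.491 to 1.22) of distal pro-T-only regions and in 1.17% (0.712 to 1.93) of distal shared regions. Over windows of the same length, it was in 1.93% (1.51 to 2.47) of promoter regions with a pre-B peak only and in 1.498% of all merged regions. The interval of the members did not overlap that of the distal pro-T-only regions. It overlapped those of the distal shared regions and of promoter regions with a pre-B peak only. Over whole regions, a search added after the data were seen, the pair occurred 0.0684 times per kb in members, 0.0214 in distal pro-T-only regions, 0.0377 in distal shared regions and 0.0533 in promoter regions with a pre-B peak only. Members that held the pair in the summit window had a median fold of 9.61 (8.60 to 10.2), and those without it one of 8.98 (8.85 to 9.09).

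The pair is shown in capitals, with 100 bases around it, for 2 of the members of high fold that held it and for the highest member nearest to Pik3ap1. They were chosen after the matches were known.
Commd8, intergenic, chr5:72184721-72184820: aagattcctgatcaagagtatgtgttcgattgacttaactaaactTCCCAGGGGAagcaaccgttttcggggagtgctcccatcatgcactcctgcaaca
Sgk3, intron, chr1:9857702-9857801: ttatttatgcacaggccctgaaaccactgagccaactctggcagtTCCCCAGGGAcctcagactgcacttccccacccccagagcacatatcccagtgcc
Pik3ap1, intron, chr19:41332037-41332136: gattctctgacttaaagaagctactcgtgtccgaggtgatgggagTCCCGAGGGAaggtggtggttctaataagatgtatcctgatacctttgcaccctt
The folds of these members were 20.1 nearest to Commd8, 18.1 nearest to Sgk3 and 15.7 nearest to Pik3ap1.

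The cores of other factors were searched for in the same windows. The RUNX core TGTGGT was found in 25.0% of members, 27.3% of distal pro-T-only regions, 20.3% of distal shared regions and 19.9% of all merged regions. The IRF repeat GAAANNGAAA was present in 6.54% of members, 7.02% of distal pro-T-only regions, 7.58% of distal shared regions and 4.35% of all. The TCF1/LEF1 core CTTTGA was present in 19.4% of members, and the E-boxes CAGGTG and CAGCTG in 21.8% and 17.4%, beside 21.3%, 23.7% and 20.0% of distal pro-T-only regions, with intervals that overlapped between these classes for all 3 cores. The ETS core GGAAGT was in 20.9% of both distal line-specific classes, and the GATA core AGATAA was in 16.3% of members and 17.5% of distal pro-T-only regions. The GC box GGGCGG, a promoter element, was found in 6.27% (5.59 to 7.02) of members, below the 9.001% (7.90 to 10.2) of distal pro-T-only regions, the 14.7% of distal shared regions and the 19.2% of all regions. A match to these letters is a description of the sequence and does not show binding.

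**Figure D1:**
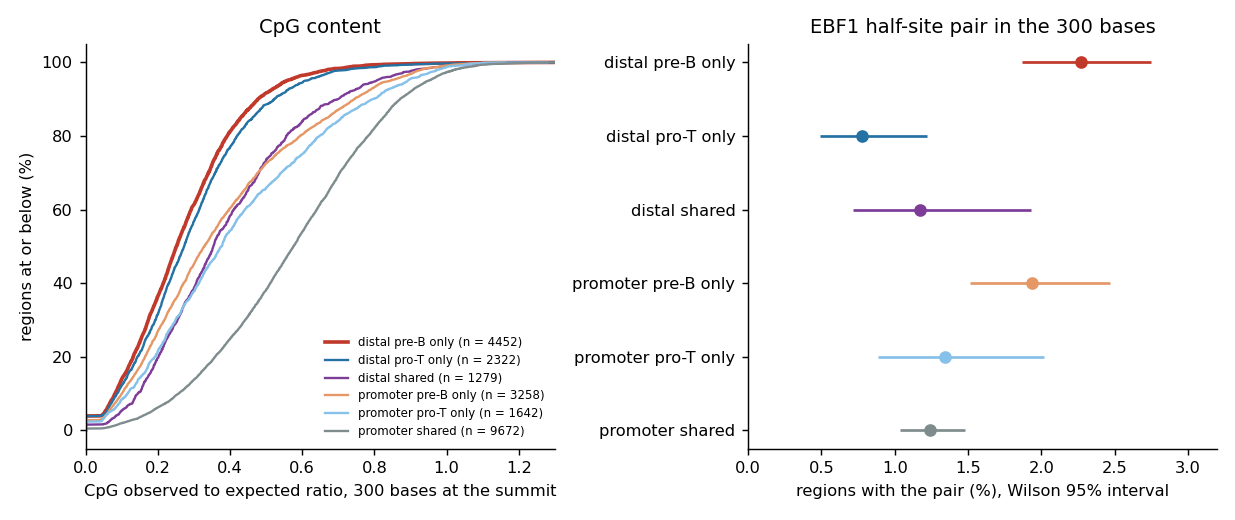
Sequence at the summits of the 6 region classes: the left panel gives the cumulative share of regions (%) against the CpG observed to expected ratio in 300 bases, and the right panel the share of regions with the EBF1 half-site pair, with Wilson 95% intervals. With the full peak lists, the members (dark red) lie farthest to the left on the CpG axis, with a median of 0.252. They have the highest point in the right panel, at 2.27%.

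Peak height and width describe the members but were part of how they were chosen. Fold is the enrichment over input at the summit and is compared only within the pre-B list. The median fold of members was 9.002 (quartiles 7.28 and 11.6, range 2.54 to 29.2), below that of promoter regions with a pre-B peak only (11.6), distal shared regions (12.2) and shared promoter regions (20.7). Only 8.56% of members reached the median fold of all pre-B peaks. A fold of at least 10 was reached by 1695 members (38.1%), and a fold of at least 20 by 95 (2.13%). The score of the irreproducible discovery rate (IDR) procedure, which rates agreement between the 2 libraries, was at its top value of 1000 in 86.2% of members.

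The median width of members was 1004 bp (quartiles 656 and 1450, range 193 to 12593), against 745.5 bp in distal pro-T-only regions and 1355 bp in distal shared regions. A shared region joins peaks of both lists, so its width is not that of a single peak. Wider members tended to be higher (Spearman's rho 0.39 over the 4452 members, which share 1 list). From the lowest to the highest of 4 equal groups of members by fold, the median width went from 767 to 1413 bp and the CpG ratio from 0.225 to 0.310, while the share inside a protein-coding gene went from 55.3% to 44.7%.

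**Figure D2:**
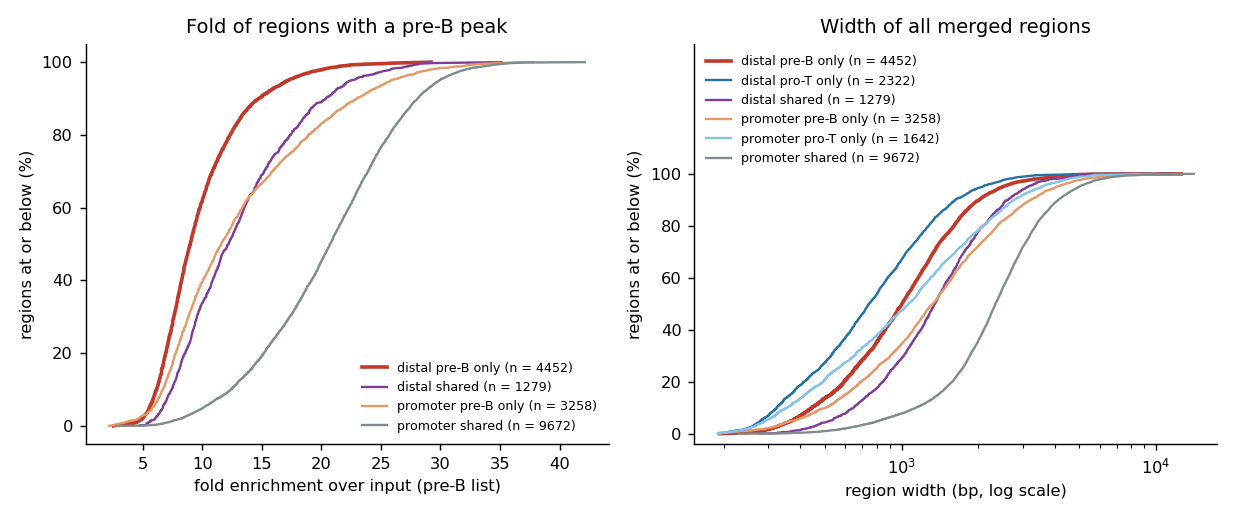
Cumulative share of regions (%) against fold enrichment over input for the 4 classes with a pre-B peak (left) and against region width in bp on a log scale for all 6 classes (right). The members (dark red) have the lowest fold, with a median of 9.002, and their median width of 1004 bp lies above that of distal pro-T-only regions.

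The 10 members of highest fold lay nearest to Hdac9, Lcor, Psd2, Ptk2b, Dglucy, Trp53rkb, Rnf19b, Sertad2, St6gal1 and Zfp808, with folds from 29.2 down to 26.8. The highest, in an intron of Hdac9, which encodes a class IIa histone deacetylase, was 3877 bp wide (chr12:34711110-34714986) and 92617 bp from the nearest TSS of that gene. The fold at the Hdac9 promoter itself was 7.95. The member nearest to Ptk2b, which encodes a non-receptor tyrosine kinase related to focal adhesion kinase, had a fold of 28.3 over 3500 bp in an intron. St6gal1, the sialyltransferase that makes the CD22 ligand on B cells, had 5 members in its introns, with folds of 11.5, 21.4, 27.0, 8.93 and 10.0 in genome order. The 2 highest of these lay side by side and measured 5423 and 2730 bp. In contrast, the member with a fold of 28.3 in an intron of Dglucy stood in a gene whose promoter had a peak in the pro-T line only.

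The 5 widest members lay nearest to Slco4a1, Coro2a, Kcna4, Sema6d and Fam49a. The widest, upstream of the organic anion transporter gene Slco4a1, measured 12593 bp with a fold of 20.1, and 62% of its summit window was repeat-masked. That in an intron of Coro2a, which encodes an actin-binding coronin, measured 7839 bp with a fold of 11.7. Those nearest to Kcna4, Sema6d and Fam49a measured 6323, 6260 and 5970 bp and lay 664559, 117136 and 292832 bp from the nearest protein-coding TSS.

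The limits of the rule passed between similar regions. Members just outside the promoter window included 2 at 2505 bp from a TSS (nearest to Rer1 and Xdh), with folds of 6.05 and 7.42, and the pre-B-only regions just inside it lay at 2500, 2499 and 2497 bp with folds of 6.05, 6.30 and 20.95. The smallest gaps between a member and a pro-T peak were 8 bp (nearest to Chd7), 28 bp (Lrrc8c) and 52 bp (Zfp36l2), and the smallest overlap that made a distal region shared was 64 bp (Irf2bpl). Within 1000 bp of a pro-T peak lay 135 members (3.03%). A further annotation moved some members to promoters: 429 (9.64%) overlapped the same window around a RefSeq TSS, compared with 10.1% of distal pro-T-only and 20.2% of distal shared regions. Among members, that share was 7.82% in the lowest and 13.3% in the highest of the 4 groups by fold.

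Members lay in and between genes in similar numbers. Introns of protein-coding genes held 2084 members (46.8%, 45.3 to 48.3), exons 162 (3.64%), other annotated genes 241 (5.41%), and 1965 (44.1%) were intergenic. The share inside a protein-coding gene was 50.4% (49.0 to 51.9), compared with 43.8% (41.8 to 45.8) for distal pro-T-only and 33.8% (31.2 to 36.4) for distal shared regions, and these 3 intervals did not overlap. With peaks of at least 10-fold, the share of members was 44.8% (42.6 to 47.0), an interval that overlaps the one given for distal pro-T-only regions. The other classes were not recomputed at that setting. Of the 2246 members inside a gene, 89.2% had that gene as their nearest one, and the promoter of a host gene carried a pre-B peak in 80.7%.

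The median distance from a member to the nearest protein-coding TSS was 16469 bp (95% interval 15750 to 17179), similar to the 16131 bp (14825 to 17585) of distal shared regions and shorter than the 24775 bp (23044 to 26587) of distal pro-T-only regions. Members within 10 kb numbered 1508, 2040 (45.8%) lay at 10 to 50 kb, and 456 (10.2%) lay more than 100 kb away. The corresponding share beyond 100 kb was 17.2% for distal pro-T-only regions. Fold and width changed little with distance: members within 10 kb had a median fold of 8.79 and those beyond 100 kb one of 9.14. A promoter region with a pre-B peak was within 50 kb of 68.6% of members.

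The promoter of the gene nearest to a member was usually marked in the pre-B line. A pre-B peak lay within 2500 bp of a TSS of that gene for 3423 members (76.9%, 75.6 to 78.1), against 48.2% of all protein-coding promoters, 73.4% (70.9 to 75.8) for distal shared regions and 53.4% (51.4 to 55.4) for distal pro-T-only regions. The promoter was marked in both lines for 58.7% of members, in the pre-B line only for 18.1% (17.0 to 19.3), in the pro-T line only for 2.43% and in neither line for 20.7%. Among all protein-coding genes, the promoter was marked in the pre-B line only in 5.96%. The shares of all genes count genes, whereas the others count regions, so a gene with several members counts more than once. Counted once each, 1925 of the 2650 genes nearest to a member had a pre-B peak at the promoter, 402 of them in that line only. The share of 18.1% compares with 6.80% (5.55 to 8.32) for distal shared regions and 5.90% (5.01 to 6.93) for distal pro-T-only regions. The latter lay nearest to a promoter marked in the pro-T line only in 15.2% of cases.

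**Figure D3:**
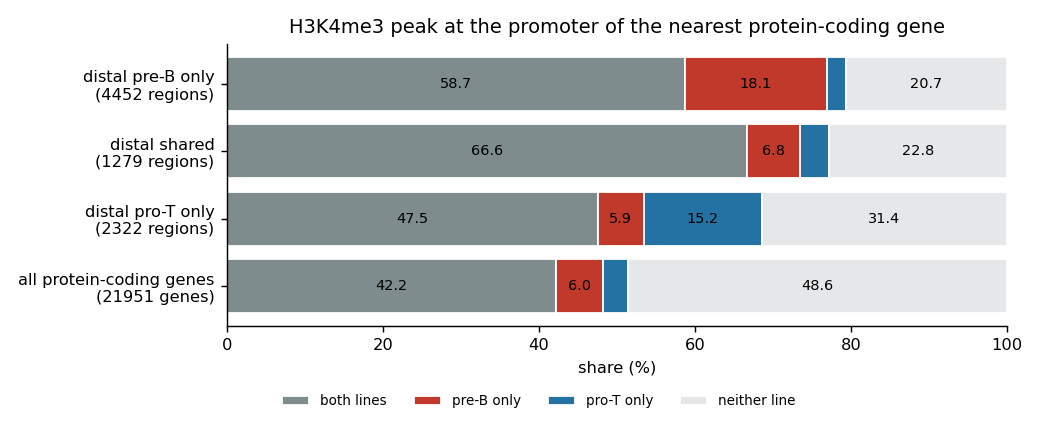
State of the promoter of the nearest protein-coding gene for 3 distal region classes, with all protein-coding genes below; each bar sums to 100% and its colors give the lines with an H3K4me3 peak within 2500 bp of a TSS. The segment for promoters marked in the pre-B line only is 18.1% for the members, 6.80% for distal shared regions and 5.96% for all genes.

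Seen from the genes, 2650 protein-coding genes (12.1%) were nearest to at least 1 member, and 407 (1.85%) to at least 3. Of genes with a promoter marked in the pre-B line only, 30.7% (28.3 to 33.3) had a member, compared with 16.4% (15.7 to 17.2) of genes marked in both lines, 10.3% (8.28 to 12.7) of those marked in the pro-T line only and 6.11% (5.67 to 6.58) of those marked in neither. Distal pro-T-only regions were nearest to 26.0% of genes marked in the pro-T line only, 8.13% of those marked in both lines, 7.41% of those marked in the pre-B line only and 4.55% of those marked in neither. A gene that stands alone collects more regions by position: per Mb of genome closest to a gene, members numbered 4.35 for genes marked in the pre-B line only, 3.14 for both, 0.999 for the pro-T line only, 0.576 for neither and 1.63 over all genes. Members and distal pro-T-only regions shared 425 nearest genes. Of genes with a member, 16.04% also had a distal pro-T-only region, against 6.93% of all genes. Of genes with a distal pro-T-only region, 27.9% also had a member, against 12.1% of all genes.

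The genes nearest to most members were Foxp1 and Lpp, with 11 each. FOXP1 is a forkhead factor required in early B-cell development, and its 11 members lay within its introns, with folds from 5.33 to 14.9 and distances of 7243 to 72604 bp from the nearest TSS. The highest of them covered 5239 bp. Lpp, a LIM-domain gene next to Bcl6, had 11 members with folds from 7.11 to 11.8, and Msi2, which encodes an RNA-binding protein of progenitor cells, had 10, from 5.64 to 14.9. Next came Tcf4, Bach2, Rpia, Gsdmc, Cited2 and Zmiz1 with 9 each, and Pced1b with 8. The promoters of Foxp1, Lpp, Msi2, Rpia, Cited2, Zmiz1 and Pced1b carried a peak in both lines, those of Tcf4 and Bach2 in the pre-B line only, and that of Gsdmc in neither.

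Rpia and Gsdmc are named only by their position. Members assigned to Rpia reached 1341491 bp from its TSS and lay in or near the immunoglobulin kappa locus, whose segments are not annotated as protein-coding. The 9 members assigned to Gsdmc lay 1426 to 1673 kb beyond the TSS of Myc, in other annotated genes.

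A larger share of B-lineage genes than of all genes was nearest to a member. The study's list of B-lineage genes was chosen on expression in sorted progenitors of another resource, not on these samples, and 232 of its 253 symbols matched a protein-coding gene. Of these 232, 96 (41.4%, 35.2 to 47.8) were nearest to a member, against 12.1% of all genes, and 38 were nearest to at least 3, against 1.85%. The list of T-lineage genes had 46 of 212 (21.7%, 16.7 to 27.7). For distal pro-T-only regions the shares were 16.4% (12.2 to 21.7) of B-lineage and 29.7% (24.0 to 36.2) of T-lineage genes, against 6.93% of all genes. Per Mb closest to the genes, B-lineage genes had 7.96 members and T-lineage genes 2.47, beside 1.63 over all genes.

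The shares were also compared among genes with the same promoter state. A promoter peak in the pre-B line only was found at 91 B-lineage genes, and 47 of them (51.6%, 41.5 to 61.6) had a member, against 30.7% of all genes in that state. Of the 81 marked in both lines, 36 (44.4%, 34.1 to 55.3) had one, against 16.4%. Among T-lineage genes, 9 of 23 marked in the pre-B line only (39.1%, 22.2 to 59.2) and 20 of 69 marked in both lines (29.0%, 19.6 to 40.6) had a member, and in each of these states their interval overlapped that of the B-lineage genes. The T-lineage genes with most members were Icosl with 6 and Il2ra, Socs1, Sgk3, Prkch and Rtn4rl1 with 4 each.

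**Figure D4:**
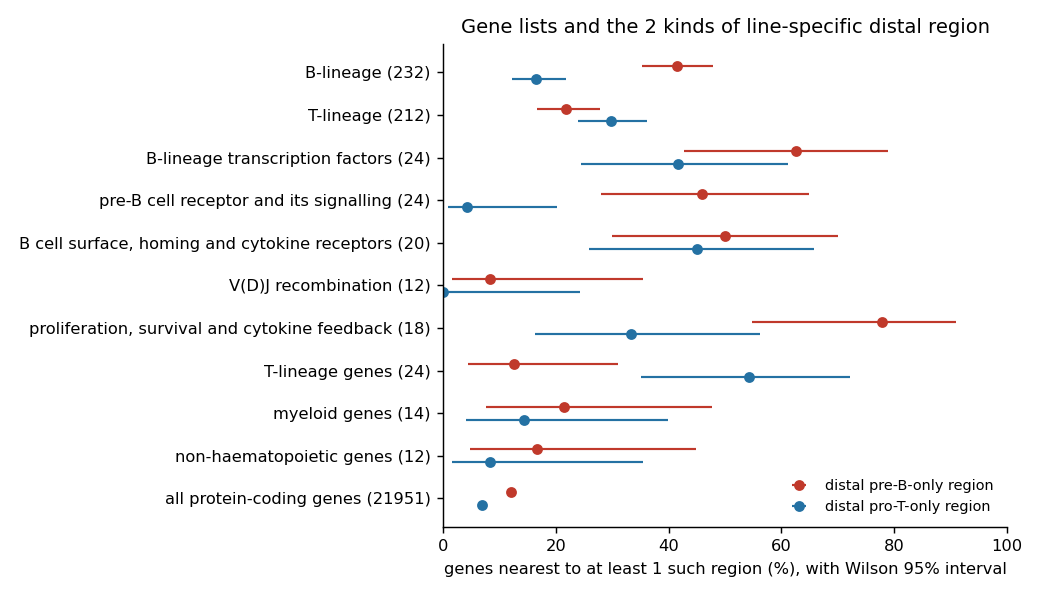
Share of genes (%) in each list nearest to at least 1 member (red) or to at least 1 distal pro-T-only region (blue), with Wilson 95% intervals and the number of genes in parentheses. The red point is at 41.4% for B-lineage genes and 12.1% for all protein-coding genes, and the blue points lie above the red ones only for the 2 T-lineage lists.

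The list named B-lineage transcription factors had members at most of its genes. It also holds genes with a promoter marked in both lines, such as Runx1, Ikzf1 and Lef1, or in the pro-T line only (Ets1). Of 24 genes listed, 15 (62.5%, 42.7 to 78.8) were nearest to a member, against 12.1% of all genes, holding 61 members in all. For distal pro-T-only regions the count was 10 (41.7%, 24.5 to 61.2), against 6.93% of all genes. This list and the named lists below were chosen with earlier results of these data known. They were not matched to all genes by promoter state, so the gap to the background is a description only. These genes stand apart from others, with a median of 245 kb of genome closest to each against 45 kb over all genes, and had 5.91 members per Mb, beside 1.63 over all genes, and 2.13 distal pro-T-only regions per Mb, beside 0.852. Ebf1 had 7 members and no other distal region, with folds of 6.08, 9.85, 8.56, 7.03, 8.69, 10.5 and 7.26 in genome order, while its promoter, with a peak in the pre-B line only, reached 26.1. The first 5 lay in the gene body, and the highest, 3596 bp wide, lay past its 3′ end (chr11:45024515-45028110). Pax5, which encodes the factor that commits cells to the B lineage, had a pair of adjoining members in an intron, with folds of 8.56 and 8.84, at 9355 and 8297 bp from a TSS. All members at both genes were lower than their own promoter.

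Bach2, a repressor of plasma cell differentiation that acts downstream of the pre-B cell receptor, had 9 members, with folds of 15.98, 9.15, 10.3, 17.4, 8.34, 6.45, 14.9, 9.36 and 7.80 in genome order. The first 4 formed a cluster upstream of the gene, 67346 to 73138 bp from a TSS. Tcf4, an E protein gene, also had 9, with a highest fold of 18.96 at 14687 bp. Foxo1, which encodes the forkhead factor that drives Rag expression, had 6 members downstream of the gene, with folds of 9.40, 8.19, 16.1, 10.4, 8.24 and 7.41, at 126798 to 299074 bp. Its promoter was marked in both lines.

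The genes of IRF4 and IRF8, which act together at the pre-B stage, had 3 members each. Those assigned to Irf4 had folds of 5.44, 7.09 and 15.7, and the highest lay in an intron of a neighboring gene, 84659 bp downstream. Those at Irf8 reached 9.40. Mef2c and Ets1 had 4 members each, Id3 2, and Spi1, Pou2af1, Bcl11a and Bcl6 1 each. Ets1 differed from the others in that its promoter had a peak in the pro-T line only, whereas its introns held 4 members with folds of 8.15, 13.1, 8.25 and 12.7 beside 4 distal pro-T-only regions. Runx1 had 8 members from 3.94 to 9.45, 3 of them 363960 to 365711 bp upstream. Ikzf1, Ikzf3, Lef1 and Myb had none, and 6, 3, 2 and 1 distal pro-T-only regions. Spib, Tcf3, Pou2f2, Zeb2 and Erg had neither a member nor a distal pro-T-only region.

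The pre-B cell receptor and its signaling chain had members at 11 of 24 genes (45.8%, 27.9 to 64.9), against 12.1% of all genes, with 38 members in all. Of the 24, 1 (4.17%, 0.739 to 20.2) was nearest to a distal pro-T-only region, against 6.93% of all genes, which lies within that interval. Vpreb2, a surrogate light chain gene, had 2 members, of 7.66 and 17.1, and the higher lay 4233 bp downstream of its TSS. Cd79b, the signaling chain of the receptor, had 2 at 12.6 and 12.1. Pik3ap1, the adaptor that links the receptor to phosphoinositide 3-kinase, had 7 members, all in its introns, with folds of 15.7, 7.52, 10.6, 8.63, 6.35, 13.03 and 8.85. The first 6 formed a cluster of 25.0 kb, and the highest is the one that held the EBF1 half-site pair shown above.

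Members at the kinases and phospholipase of the chain were of middle height. Syk had 4, of 10.2, 7.56, 7.53 and 7.53, Lyn 4, of 7.79, 9.84, 5.51 and 10.4, Blk 2 that reached 10.6, and Btk 1 of 6.21. Plcg2, which encodes the phospholipase activated by Syk and Btk, had 6 between 8.07 and 11.8, all at least 15588 bp from a TSS. Inpp5d, the inositol phosphatase SHIP that dampens the pathway, had 6, the highest at 14.1. The promoters of Vpreb2, Cd79b, Blnk, Syk, Lyn, Blk, Plcg2 and Pik3ap1 had a peak in the pre-B line only, and those of Btk, Inpp5d and Prkcb in both lines. Vpreb1, Vpreb3, Igll1 and Cd79a, whose promoters all had a pre-B peak, had no member.

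Among 18 genes of proliferation, survival and cytokine feedback, 14 (77.8%, 54.8 to 91.0) were nearest to a member, holding 47, against 12.1% of all genes. A distal pro-T-only region was nearest to 6 of them (33.3%, 16.3 to 56.3), against 6.93% of all genes. All 14 genes with a member had a pre-B peak at their promoter, and no comparison within that promoter state was made. Bcl2l1, which encodes the survival protein Bcl-xL, was the nearest gene of 7 members in its introns. Their folds were 5.44, 6.73, 7.34, 8.87, 5.80, 7.53 and 17.4, the last 3932 bp from a TSS. Further members within Bcl2l1 had Cox4i2 as their nearest gene. Bcl2 had 7, from 6.17 to 15.5. Socs1, a feedback inhibitor of JAK-STAT signaling, had 4, of 6.36, 12.5, 17.8 and 8.18, and 3 of them stood together 13362 to 15698 bp downstream. Ccnd2 and Ccnd3, the D-type cyclins of pre-B cells, had 4 and 2, with highest folds of 10.3 and 16.8, and their partner Cdk6 had 3, up to 13.2. Myc had 4 between 7.82 and 13.1, all at least 181123 bp away.

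Surface and homing receptors were near distal regions of both lines. Of 20 genes, 10 (50%, 29.9 to 70.1) were nearest to a member, against 12.1% of all genes, and 9 (45%, 25.8 to 65.8) to a distal pro-T-only region, against 6.93%. The largest number was at S1pr1, the receptor for lymphocyte egress, with 6 members of 7.06 to 14.5, next to 2 distal pro-T-only regions, followed by St6gal1 with 5. Il2ra, the alpha chain of the interleukin-2 receptor, had 4 members in its introns, of 9.35, 8.25, 7.82 and 15.04, although its promoter had a peak in the pro-T line only. Il7r had none, and 3 distal pro-T-only regions.

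The intervals of the remaining lists included the background of 12.1%. Of 12 genes for V(D)J recombination, 1 had a member, and none was nearest to a distal pro-T-only region, which allows a share of up to 24.2% by the Wilson interval. Of 24 T-lineage genes, 3 had a member, namely Notch1 with 2 and Hes1 and Dtx1 with 1 each, against 13 with a distal pro-T-only region. Of 14 myeloid genes 3 had a member, and of 12 non-hematopoietic genes 2 did. As a check of the labels, 8 of 9 B progenitor marker promoters had a pre-B peak and 2 (Vpreb1 and Rag1) had a pro-T peak. Of the T progenitor marker promoters, 9 of 9 had a pro-T peak and 3 (Cd3d, Lck and Tcf7) a pre-B peak. Among the 24 T-lineage genes, however, Cd5 and Cd6 had a promoter peak in the pre-B line only and Cd28 in neither line. Every other gene of that list had a pro-T peak at its promoter. None of 6 myeloid marker promoters had a peak in either line, but 5 other genes of the myeloid list did, Cebpb, Gfi1 and Fcgr3 in the pro-T line only and Csf2ra and Tlr4 in the pre-B line only. The erythroid marker Klf1 and the endothelial marker Pecam1 had a promoter peak in both lines, and the fibroblast marker Col1a1 in the pre-B line only. Rag1 was the B progenitor marker without a pre-B peak.

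**Figure D5:**
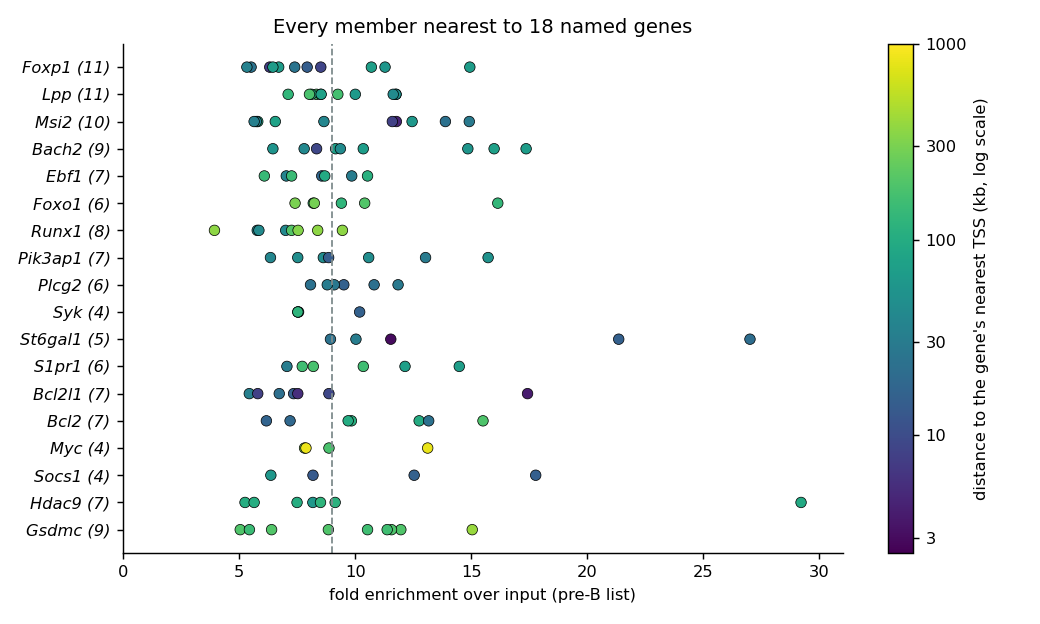
Fold enrichment over input of every member nearest to 18 named genes, 1 point per member, colored by its distance in kb from the nearest TSS of that gene on a log scale; numbers in parentheses count the members and the dashed line marks the median fold of all members, 9.002. Most points lie between 5 and 15, and the members at Hdac9 (29.2) and St6gal1 (27.0) stand farthest to the right.

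Some members stood close together. A cluster was defined as members chained by gaps of at most 10 kb, and 656 clusters of 2 or more held 1567 members (35.2%, 33.8 to 36.6). The share was 28.8% (27.0 to 30.7) for distal pro-T-only and 19.5% (17.5 to 21.8) for distal shared regions, which are fewer, 32.7% (31.1 to 34.3) for promoter regions with a pre-B peak only and 38.6% (37.7 to 39.6) for shared promoter regions. The share of members in clusters was 23.3% with equal numbers of peaks in both lists and 19.01% with peaks of at least 10-fold. Of the clusters, 482 had 2 members, 117 had 3, and 57 had 4 or more. The median cluster spanned 4.83 kb, and 636 (97.0%) had no pro-T peak inside. The rule largely sets that share, since members overlap no pro-T peak and only the gaps between them could hold one. Gaps under 1 kb separated 476 pairs of neighboring members (10.7%), so part of the clustering is of adjoining peaks. Members in clusters of 4 or more resembled those standing alone, with median folds of 9.17 and 9.003 and median widths of 1063.5 and 997 bp.

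No cluster had more than 6 members, and 7 had this number. The cluster with the highest median fold (12.3) lay in a gene desert nearest to Sel1l (chr12:92879748-92893807), 11.4 kb of whose 14.1 kb were covered by members. Near Chst3, a chondroitin sulfotransferase gene, 6 members spanned 14.0 kb with folds up to 18.7. A pair of clusters lay within Bcl2l1, one of 10.4 kb, some of whose members had Cox4i2 as their nearest gene, and one of 18.8 kb, with folds up to 18.02 and 17.4. The remaining clusters of 6 lay in Pik3ap1, near Usp12 (17.7 kb, up to 19.5), and between Erv3 and Prnp (12 kb, up to 11.8).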

How the data were processed

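The H3K4me3 libraries of each line (2 with 1 input) had been combined into 1 peak list per line. According to the submitters' processing notes, reads were trimmed with Trim Galore (0.6.7), mapped to mm10 (GRCm38) with Bowtie2 (2.4.4) and peaks were called with MACS2 (2.2.7.1). The authors then kept peaks that were reproducible between libraries by IDR. The deposited columns used are the IDR score, the fold over input (a ratio), and the −log10 p-value of each peak. Read counts were not analysed here.

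Peaks were merged, classed against GENCODE M21 (132666 distinct TSSs) and assigned to the closest TSS of 21951 protein-coding genes. The edge of the region was used. Sequence was read from the RefSeq GRCm38 assembly with pysam (0.24.0) in Python (3.11.15), with 150 bases either side of the summit. Shares have Wilson intervals and medians have order-statistic intervals at the 95% level (scipy 1.17.1). No test was run, because each line has 1 list. Classes and motif matching were tested on simulated data. The members and gene lists were chosen with earlier results of these data known. Named genes were those of the lists nearest to a member (at most 25 with values), the 10 nearest to most members, those of the 10 highest and 5 widest members, and those at the 5 largest clusters; others are named only at an edge of the rule, for a sequence or for their absence. Alternatives covered the promoter window and its annotation, the fold and IDR score of peaks, equal list sizes, the gap to pro-T peaks, the choice of TSS, the chaining distance and the sequence window. A few items are not reported here.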

Additional observations from a re-analysis of the deposited data

How the results depend on the processing

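No paired analysis was possible because each line has 1 pooled list, and for the same reason no library could be left out. Of 83 recomputed values, 59 stayed within the interval of the reported one or, for counts, within 1.5 times of it. With peaks of at least 10-fold there were 1936 members, and with equal numbers of peaks in both lists 2194. These settings gave, in the same order, 19.01% and 23.3% of members in clusters, 72.4% and 75.2% with the nearest promoter marked in the pre-B line, 44.8% and 48.4% inside a protein-coding gene, 23 and 27 T-lineage genes, and median CpG ratios of 0.294 and 0.282. With an IDR score of 1000 required, 32.1% were in clusters and the CpG ratio was 0.258. With protein-coding TSSs only, 37.5% were in clusters and 47.9% inside a gene. Windows of 1000 and 5000 bp left 52.6% and 48.1% inside a gene. Chaining at 5 and 20 kb put 29.2% and 44.3% in clusters, and adding RefSeq TSSs, chosen after the data were seen, 33.3%. By the most upstream TSS, 75.5% had a marked nearest promoter. The EBF1 pair was in 4.40% with 250 bases either side and in 7.57% of whole regions, as longer sequence was searched. No replicate, depth or absolute level of the mark was available to set the error of any fold.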

Other observations

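The antigen receptor loci held members unevenly. The immunoglobulin kappa locus (chr6:67555497-70726966) held 16, with folds from 4.10 to 15.1 and a median of 8.58, beside 11 promoter regions with a pre-B peak only and 1 distal pro-T-only region. Neither the heavy chain nor the lambda locus held a member. The T-cell receptor gamma locus held 4 members (7.53 to 11.6) and no distal pro-T-only region, while the beta locus and the alpha/delta locus held 1 member each, next to 2 and 3 distal pro-T-only regions. Promoter regions with a pre-B peak only numbered 8, 2 and 5 at the gamma, beta and alpha/delta loci. Those with a pro-T peak only numbered 0, 5 and 7 in the same order.

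Between Myc and Gsdmc on chromosome 15 stood 13 members, with folds from 5.05 to 15.04, along with 1 distal pro-T-only and 1 distal shared region. Of these members, 4 had Myc as their nearest gene and 9 lay farther than 1000 kb from its TSS.

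In windows of 1 Mb, the most members (21) stood on chr4:133000001-134000000, where 6 were nearest to Arid1a and 4 each to Ahdc1 and Zdhhc18, beside 1 distal pro-T-only region. The next window, chr2:167000001-168000000, held 17 members beside 2 distal pro-T-only and 5 distal shared regions. The windows with Bcl2l1 (chr2:152000001-153000000) and Plcg2 (chr8:117000001-118000000) held 16 members each and no distal pro-T-only region. By chromosome, members ranged from 2.89 per Mb on chromosome 11 to 0.298 on X among chromosomes other than Y, and they made up 63.5% of distal regions on chromosome 5 and 34% on X.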
